A study of Mus musculus with 6 samples.

Results

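Apolipoproteins are the protein part of the particles that carry lipid in blood. The genes described are 9 apolipoprotein genes, Apoa1, Apoa2, Apoa4, Apoa5, Apob, Apoc1, Apoc2, Apoc3 and Apoe, and Mttp, which codes for the microsomal triglyceride transfer protein. They were chosen by gene symbol, and all 10 were found among the 18444 genes of the liver RNA-seq tables. Liver RNA of C57BL/6 mice (C57BL/6J in the study's methods) was sequenced in 6 libraries, 1 per condition, to follow the response to JT003, a peptide agonist of both adiponectin receptors, in a diet model and in a carbon tetrachloride (CCl4) model. All mice were male and are listed at 6 to 8 weeks of age, and no transgene or deleted gene is named. The study's methods state a fast of 8 h before the mice were killed. The age at which livers were taken is not given. With 16 weeks of diet and 6 weeks of CCl4 injections, it may differ between the models. In the diet model, the SD library was the control, on what the study calls standard diet (SD), a defined diet with less fat. The HFD library came from high fat diet for 16 weeks, and the HFD plus JT003 library from the same high fat diet with JT003 at 500 µg per kg daily for 4 weeks. In the CCl4 model, the corn oil library was the vehicle control, the CCl4 library came from injections of CCl4 for 6 weeks, and the CCl4 plus JT003 library from CCl4 with JT003 at 500 µg per kg daily for 3 weeks. The labels call the HFD liver NASH (nonalcoholic steatohepatitis) and the CCl4 liver fibrotic. The study's methods describe a high fat diet alone and one combined with a methionine and choline deficient diet, so the diet of the HFD livers is not certain beyond the label HFD. How many mice went into each library is not given in the sources used here.

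The liver packs triglyceride and cholesterol ester onto apolipoprotein B, with the help of the Mttp protein in the endoplasmic reticulum, and secretes the product as very low density lipoprotein (VLDL). Apolipoprotein A-I is the main structural protein of high density lipoprotein (HDL). The small apolipoproteins of the A, C and E groups move between particles and set how fast lipoprotein lipase and liver receptors clear them. Several of the genes lie side by side. In the RefSeq order of the mouse genome, Apoa1, Apoc3, Apoa4 and Apoa5 follow one another on chromosome 9, and Apoc2, Apoc4, Apoc1 and Apoe follow one another on chromosome 7.

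Upstream sequence is shown for Apoa1, Apoa4 and Apoa5, the 3 genes of the chromosome 9 group that were lower in both the HFD and the CCl4 library, and for Apob, whose level hardly differed between HFD and SD. Each sequence is the 250 bases before a RefSeq start of the gene in build GRCm38.p6, read 5′ to 3′ on the strand of the gene. The positions are chr9:46228380-46228629 for Apoa1, chr9:46240594-46240843 for Apoa4, chr9:46268358-46268607 for Apoa5 and chr12:7977427-7977676 for Apob, all on the plus strand. Of the 10 genes, 8 had an entry in the promoter table, and Apoc1 and Apoc3 are named only. Capitals mark any match, on either strand, to 5 short motifs. The TATA box was searched as TATAAA. The motif of the hepatocyte factor HNF4A was searched as CAAAGTNCA. The E-box was searched as CACGTG. The half-site of nuclear receptors was searched as AGGTCA. The half-site of the cyclic AMP response element (CRE) was searched as TGACGT.
Apoa1: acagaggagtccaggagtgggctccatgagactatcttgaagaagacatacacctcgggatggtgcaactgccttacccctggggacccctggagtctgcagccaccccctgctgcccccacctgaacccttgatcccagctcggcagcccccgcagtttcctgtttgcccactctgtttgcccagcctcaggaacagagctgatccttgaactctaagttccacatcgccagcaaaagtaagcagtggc
Apoa4: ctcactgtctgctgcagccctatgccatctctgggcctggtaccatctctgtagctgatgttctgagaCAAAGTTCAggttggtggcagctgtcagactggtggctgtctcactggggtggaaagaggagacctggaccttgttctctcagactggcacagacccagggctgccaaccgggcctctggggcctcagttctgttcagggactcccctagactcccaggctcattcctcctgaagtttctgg
Apoa5: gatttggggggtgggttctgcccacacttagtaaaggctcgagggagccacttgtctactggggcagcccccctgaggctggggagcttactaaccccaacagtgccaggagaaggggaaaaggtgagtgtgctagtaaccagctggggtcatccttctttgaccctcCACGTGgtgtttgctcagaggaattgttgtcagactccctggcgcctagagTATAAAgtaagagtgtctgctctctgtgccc
Apob: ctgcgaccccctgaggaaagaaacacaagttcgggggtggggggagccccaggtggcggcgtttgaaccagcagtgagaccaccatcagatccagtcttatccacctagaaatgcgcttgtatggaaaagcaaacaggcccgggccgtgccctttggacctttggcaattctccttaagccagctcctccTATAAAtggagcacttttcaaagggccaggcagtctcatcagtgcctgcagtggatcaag
The Apoa4 sequence held 1 match to the HNF4A motif, from base -182 to base -174 before the start. This motif was in 1.19% of the 32851 upstream windows of the same length in the table. The Apoa5 sequence held an E-box from base -82 to base -77 and a TATA box from base -31 to base -26, and Apob held a TATA box from base -60 to base -55. Counted from another RefSeq start of Apoa5, whose window is not shown, the E-box lay from base -107 to base -102 and the TATA box from base -56 to base -51. Over all windows, 6.02% held the E-box and 12.4% the TATA box, while 14.0% held the nuclear receptor half-site and 6.47% the CRE half-site. No match to the 5 motifs was found in the Apoa1 window, which says only that these letters were not in it. The motifs do not overlap each other in these windows.

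Each library held 19374236 to 20184557 counts, and 16083 to 16738 genes had reads. The 10 genes together took 4.44% of the reads in SD, 3.50% in HFD and 3.58% with HFD plus JT003. They took 4.98% in corn oil, 4.13% in CCl4 and 4.78% with CCl4 plus JT003. Hepatocyte markers, the genes of the cell type that makes most plasma proteins, had reads for 16 of 16 genes in every library, and their summed level lay between 112084 and 149004 counts scaled to a common library size (CPM). Sums of the other marker lists, in CPM from the lowest to the highest library, were 112 to 554 for 12 macrophage genes, 234 to 468 for 10 stellate cell and myofibroblast genes, 66.7 to 242 for 6 endothelial genes and 26.5 to 156 for 5 bile duct genes. They were 0 to 22.6 for 3 adipocyte genes, 224 to 436 for 4 red blood cell genes, 1.34 to 4.38 for 5 lymphocyte genes, 4.08 to 8.97 for 4 neutrophil genes and 0 to 0.059 for 1 pancreatic acinar gene. Since each condition has 1 library, no difference can be checked against replicates, and every test and interval compares the reads of a pair of libraries and not the conditions, and covers counting error only. A gene was called when its adjusted p from the exact binomial test was under 0.001 and its log2 ratio was at least 1 in size, and a lower limit of 0.5 is given beside it. In whole liver, fewer cells of a type and less RNA per cell cannot be told apart.

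Levels per length are given as FPKM, fragments per kilobase of transcript scaled to the depth of the library. Apoe had the highest FPKM of the 10 genes in each of the 6 libraries, from 10840 in SD to 16059 in CCl4 plus JT003. It ranked between position 2 and position 8 among all genes. Apoa1, Apoa2 and Apoc1 took the next 3 places in every library, in changing order. Apoc2 and Mttp, together with Apob in the CCl4 libraries, were at the low end. The spread over the 6 libraries was widest for Apoa4, at 18.8-fold on the scaled count scale, and 99.2% of the 9376 genes with a mean of at least 100 counts had a narrower range. It was 3.10-fold for Apoc2, 2.72-fold for Apoa5, 2.47-fold for Mttp, 2.45-fold for Apoc3, 2.38-fold for Apoa1, 2.16-fold for Apob, 1.92-fold for Apoa2, 1.87-fold for Apoc1 and 1.61-fold for Apoe. The median range of those 9376 genes was 0.77 on the log2 scale, and the range was 0.68 for Apoe.

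**Figure D1:**
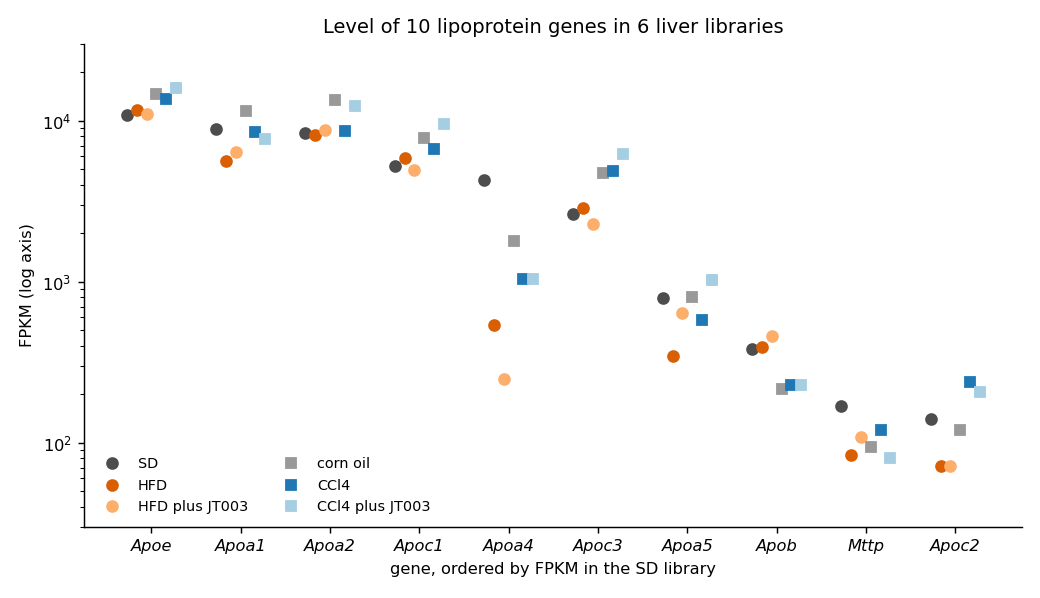
FPKM (log axis) of each of the 10 genes in the 6 liver libraries, with 1 point per library, circles for the diet model and squares for the CCl4 model. Apoe is at the top in all 6 libraries, and Apoa4 runs from 4256 in SD down to 249 in HFD plus JT003.

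The diet comparison asks how liver on high fat diet differed from that on standard diet. In HFD, 4 of the 10 genes were called lower than in SD, namely Apoa4, Apoa5, Apoc2 and Mttp, and none was called higher. Over all 16973 genes tested, 2.49% were called lower. At the limit of 0.5 Apoa1 joined them, making 5 genes beside 6.86% of all genes, and called genes in either direction at the limit of 1 made up 5.44%. Apoc2 lay at the edge of the limit of 1 and was not called with total reads (-0.94) or FPKM (-0.97) as the scale or after subtraction of length bins (-0.996). With a biological coefficient of variation of 0.2 assumed in the edgeR exact test, Apoa4 alone of the 4 genes was called, beside 179 of the 16973 genes. The median log2 ratio was -0.48 over the 10 genes and -0.00035 over all genes. Over the 4624 genes with the most counts in this pair it was -0.09, and 59.5% of those were lower in HFD. Apoe, Apob, Apoc1 and Apoc3 were within 0.08 of 0 on the log2 scale. Neighbouring genes thus differed, with Apoc3 near 0 beside Apoa4 at -3.11. Of 16 hepatocyte markers 1 was called higher and 1 lower in HFD, and 12 had a ratio below 0 (median -0.17). Markers of other cell types moved in the same pair of libraries. Of 10 stellate cell and myofibroblast markers 5 were called higher in HFD (median 0.92, summed level 250 CPM in SD and 435 CPM in HFD), and 2 of 4 red blood cell markers were called lower. The adipocyte gene Cfd had 2 counts in SD and 454 in HFD. The other listed adipocyte genes did not follow it, with 1 count of Plin1 and 0 of Adipoq in each. Their part in the ratios of the 10 genes was not tested.

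The JT003 comparison in the diet model asks what the agonist changed on top of the diet. In HFD plus JT003, only Apoa4 of the 10 genes was called lower than in HFD, beside 0.901% of 17090 genes, and at the limit of 0.5 lower calls made up 2.99% of genes and Apoa4 was still the only gene of the 10 among them. Apoa5 was called higher at the limit of 0.5, beside 2.73% of genes. Calls in either direction at the limit of 1 made up 1.67%. The median log2 ratio of the 10 genes was 0.05, that of all genes -0.0075, and that of the 4685 genes with the most counts in this pair 0.01. Apoa4 was not called with the assumed variation of 0.2, beside 19 of all genes. Of the stellate cell and myofibroblast markers 4 of 10 were called lower (median -0.98), and Cfd had 454 counts in HFD and 166 with JT003. The adipocyte gene Plin1 had 1 count in HFD and 0 with JT003, and Adipoq had 0 in both. The part of these markers was not tested. This comparison and the one before it share the HFD library.

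The CCl4 comparison asks how liver exposed to the toxin differed from its corn oil control. In CCl4, Apoa4 was the only gene of the 10 called lower than in corn oil, beside 2.46% of 17234 genes, and 7.26% were called in either direction. At the limit of 0.5, 4 genes were lower, Apoa1, Apoa2, Apoa4 and Apoa5, beside 7.06% of all genes, and Apoc2 was higher, beside 9.32%. These 4 lower genes are all of the A group, but Apoc1, at -0.47, fell just short of the same limit. Apoa4 lost the call with total reads (-0.79) or FPKM (-0.79) as the scale, after subtraction of length bins (-0.99), and with the assumed variation of 0.2, beside 346 of all genes. The median log2 ratio was -0.41 for the 10 genes, 0.0046 for all genes and -0.0060 for the 4411 genes with the most counts in this pair. Of 16 hepatocyte markers 1 was called higher and 2 lower in CCl4 (median 0.07). In the same pair, 10 of 12 macrophage markers, 4 of 5 bile duct markers and 3 of 10 stellate cell and myofibroblast markers were called higher. The part of these markers was not tested. The macrophage markers summed to 112 CPM in corn oil and 284 CPM in CCl4, both below the 428 CPM of SD.

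In the JT003 comparison of the CCl4 model, none of the 10 genes was called at the limit of 1 in either direction, beside 4.46% of 17393 genes. The ratio farthest from 0 was that of Apoa5, at 0.74. Against the rest of a pooled CCl4 column, described at the end, 1 gene was called, Apoa5 at 1.47, beside 818 of 17554 genes. At the limit of 0.5, Mttp was lower, beside 7.2% of genes, and Apoa5 was higher, beside 5.85%. The median log2 ratio of the 10 genes was 0.05, that of all genes -0.0036, and that of the 4744 genes with the most counts in this pair -0.08. Of the stellate cell and myofibroblast markers 3 of 10 were called lower (median -0.77), and their part was not tested. This comparison shares the CCl4 library with the one before it.

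**Figure D2:**
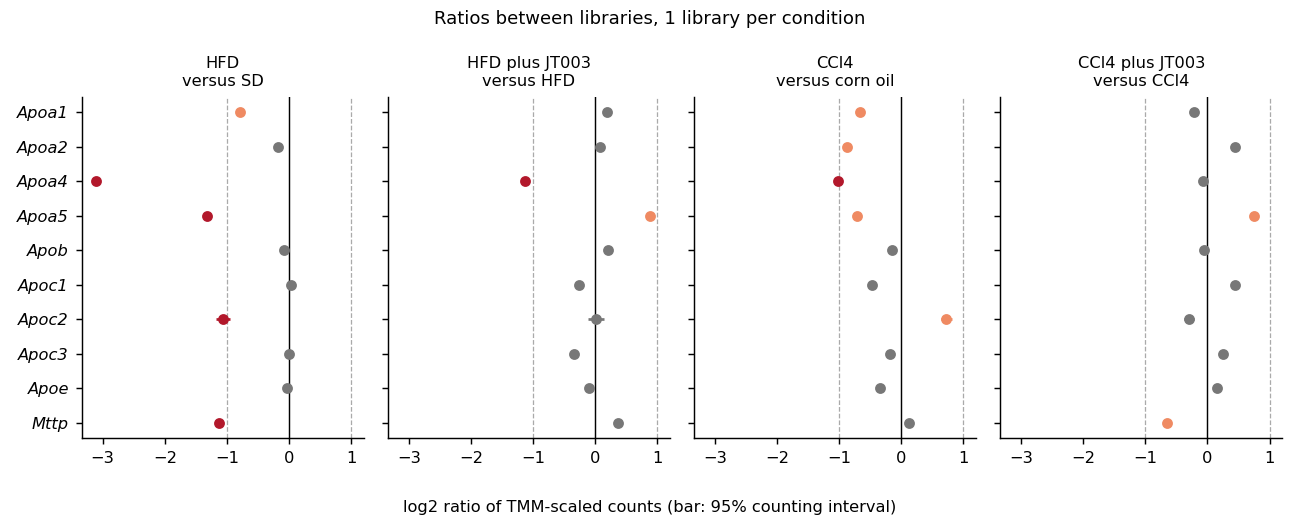
Log2 ratio of TMM-scaled counts for the 10 genes in 4 comparisons of 1 library with another, with bars for the 95% counting interval (mostly inside the point). Dark red points passed the limit of 1, light red points the limit of 0.5 and grey points neither, and the far left point is Apoa4 at -3.11 in HFD versus SD.

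Apoa1 codes for apolipoprotein A-I, which builds HDL and activates the enzyme that esterifies its cholesterol. Its FPKM was 8879.9 in SD, 5611 in HFD and 6435 with HFD plus JT003, and 11454 in corn oil, 8527 in CCl4 and 7685 with CCl4 plus JT003. In each model the control library was the highest of the 3. The log2 ratio was -0.79 (95% interval -0.80 to -0.77) for HFD versus SD and -0.66 (-0.67 to -0.65) for CCl4 versus corn oil. With JT003 it was 0.18 in the diet model and -0.22 in the CCl4 model, both under the lower limit, so that the CCl4 plus JT003 library stood at -0.88 against corn oil.

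Apoa2 codes for apolipoprotein A-II, the second protein of HDL by amount. Its FPKM was 8425 in SD, 8132 in HFD and 8712 with HFD plus JT003, which are close together. In the CCl4 model it was 13425 in corn oil, 8667 in CCl4 and 12303 with CCl4 plus JT003. The CCl4 library was the low one there, at a log2 ratio of -0.87 (-0.88 to -0.86) to corn oil, and the library with JT003 was 0.44 (0.43 to 0.45) above it. Per length, Apoa2 stood at 0.949 of Apoa1 in SD and at 1.45 of it in HFD, and at 1.17 in corn oil, 1.02 in CCl4 and 1.60 with CCl4 plus JT003. The authors' expected counts of Apoa2 were not whole numbers in any of the 6 libraries, as happens where reads were divided between transcripts of more than 1 gene, so its level carries that uncertainty.

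Apoa4 codes for apolipoprotein A-IV, which in the mouse is made by intestine and by liver and travels on chylomicrons and HDL. Its counts were 142917 in SD, 17654 in HFD and 8232 with HFD plus JT003, and 57854 in corn oil, 34752 in CCl4 and 33446 with CCl4 plus JT003. The same libraries had 4256, 537, 249, 1786, 1036 and 1036 FPKM. It ranked at position 19 of all genes in SD and at position 253 in HFD plus JT003. The 2 libraries on high fat diet were the lowest of the 6, and each control library was the highest of its model. HFD was 8.62-fold lower than SD, a log2 ratio of -3.11 (-3.13 to -3.09). The HFD plus JT003 library was farther from SD than the HFD library was, by a log2 ratio of -1.12 (-1.16 to -1.09) to HFD and of -4.23 to SD. CCl4 versus corn oil was at -1.02 (-1.04 to -1.005), at the edge of the limit of 1, and CCl4 plus JT003 differed little from CCl4 (-0.07, and 0.0019 with total reads as the scale). Because intestine makes much Apoa4, markers of gut epithelium were read beside it. Of 7 enterocyte genes 3 were listed, and 4 were not listed in any library. The summed level of the 3 was 107 CPM in SD, 89.9 in HFD, 95.7 with HFD plus JT003, 108 in corn oil, 48.1 in CCl4 and 49.3 with CCl4 plus JT003. Nearly all of it came from Fabp2, a fatty acid binding protein gene of the gut, which had 2026, 1803, 1949, 1842, 1003 and 1049 counts in the same order. The summed level was highest in the control library of each model. It was nearly the same in SD and corn oil, where Apoa4 had 142917 and 57854 counts. Fabp2 was called lower in CCl4 versus corn oil (-1.16) and was at -0.26 in HFD versus SD. Vil1, which builds the brush border, had 0 counts in SD, 3 in HFD, 3 with HFD plus JT003, 1 in corn oil, 13 in CCl4 and 9 with CCl4 plus JT003, and Lct, the intestinal lactase gene, had 0 to 3 counts. The part of gut tissue in the Apoa4 level was not tested. Gm10680, an antisense gene, and Gm47528, a gene model still to be experimentally checked, overlap Apoa4 on the opposite strand in the GENCODE annotation, and whether strand was kept is not given in the sources used here.

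Among 9366 other genes with a mean of at least 100 counts, the profile over the 6 libraries nearest to that of Apoa4 was that of Lepr, the leptin receptor gene, at a root mean square difference of 0.52 on the centred log2 scale. Lepr had 12.6 FPKM in SD, 0.54 in HFD, 0.59 in HFD plus JT003, 2.87 in corn oil, 1.57 in CCl4 and 1.17 with CCl4 plus JT003. Atf5, a transcription factor gene of the stress response, followed at 0.55, and Csad, an enzyme of taurine synthesis, at 0.58. Both shared the high SD value and the low values on high fat diet, with 738 FPKM of Atf5 in SD and 125 with HFD plus JT003, and 183 of Csad in SD and 35.6 in HFD. Likeness over 6 libraries from single samples is a description only.

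Apoa5 codes for apolipoprotein A-V, a low-abundance liver protein that favours lipoprotein lipase and lowers plasma triglyceride. Its FPKM was 791 in SD, 345 in HFD and 639 with HFD plus JT003. In the CCl4 model it was 803 in corn oil, 581 in CCl4 and 1018 with CCl4 plus JT003. In both models the library of the injured liver without JT003 was the lowest of the 3. The log2 ratio was -1.32 (-1.35 to -1.29) for HFD versus SD and 0.88 (0.85 to 0.90) for HFD plus JT003 versus HFD, which left the latter at -0.44 against SD. It was -0.71 (-0.73 to -0.68) for CCl4 versus corn oil and 0.74 (0.72 to 0.77) for CCl4 plus JT003 versus CCl4, which left the latter at 0.04 against corn oil. Apoa5 was the only gene of the 10 that passed the limit of 0.5 with JT003 in both models in the same direction. D7Ertd143e, Fbf1 and the glutathione transferase gene Gstt2 had the nearest profiles to Apoa5, at root mean square differences of 0.16, 0.17 and 0.17.

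Apoc2 codes for apolipoprotein C-II, the cofactor that lipoprotein lipase needs. Its FPKM was 140.4 in SD, 71.1 in HFD and 71.9 with HFD plus JT003, and 119 in corn oil, 237 in CCl4 and 206 with CCl4 plus JT003. The models went opposite ways, with both libraries on high fat diet below SD and both CCl4 libraries above corn oil. The log2 ratio was -1.06 (-1.18 to -0.95) for HFD versus SD, where the call was lost on other scales, and 0.72 (0.63 to 0.81) for CCl4 versus corn oil. JT003 was at 0.0082 (-0.12 to 0.14) in the diet model and -0.30 (-0.37 to -0.22) in the CCl4 model. With 972 to 3181 counts Apoc2 was the least counted of the 10 genes, and its intervals are the widest. Its expected counts were not whole in any library, and the protein-coding gene Gm44805 overlaps it on the same strand. Apoc4, its neighbour, had log2 ratios of -0.74 in HFD versus SD and -0.54 in CCl4 versus corn oil, the latter opposite to Apoc2. The nearest profiles to Apoc2 were those of Ephx1, a microsomal epoxide hydrolase gene, at 0.15, Kcp at 0.16 and Rhoc at 0.18, and Ephx1 was at 609 FPKM in CCl4 beside 323 in corn oil and 203 in HFD.

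Apoc3 codes for apolipoprotein C-III, an inhibitor of lipoprotein lipase and of particle uptake. Its FPKM was 2626 in SD, 2865 in HFD and 2271 with HFD plus JT003, and 4724 in corn oil, 4878 in CCl4 and 6174 with CCl4 plus JT003. HFD and SD could not be told apart in scaled counts, with a log2 interval of -0.02 to 0.02. The library with JT003 was the lowest of the diet model (-0.34, interval -0.37 to -0.32, versus HFD) and the highest of the CCl4 model (0.26, interval 0.24 to 0.27, versus CCl4). None of these passed the limit of 0.5.

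Apoc1 codes for apolipoprotein C-I, which slows the uptake of remnants by receptors. Its FPKM was 5218 in SD, 5837 in HFD and 4945 with HFD plus JT003, and 7859 in corn oil, 6699 in CCl4 and 9492 with CCl4 plus JT003. As for Apoc3, the library with JT003 was the low one in the diet model (log2 ratio -0.25 to HFD) and the high one in the CCl4 model (0.44 to CCl4). CCl4 versus corn oil was at -0.47 (-0.48 to -0.45), short of the lower limit.

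Apoe codes for apolipoprotein E, the ligand by which remnants bind receptors on liver cells, made by hepatocytes and also by macrophages. Its FPKM was 10840 in SD, 11594 in HFD and 10956 with HFD plus JT003, and 14762 in corn oil, 13681 in CCl4 and 16059 with CCl4 plus JT003. The diet libraries lay close together, and HFD versus SD was at -0.03 (-0.04 to -0.02), turning to 0.10 with total reads as the scale and to 0.02 with hepatocyte markers as the scale. CCl4 versus corn oil was at -0.35 (-0.36 to -0.34) and CCl4 plus JT003 versus CCl4 at 0.16. Macrophage markers summed to 112 CPM in corn oil and 284 CPM in CCl4, both below the 428 CPM of SD. Of 12 macrophage markers 10 were called higher in CCl4 than in corn oil, with a median log2 ratio of 1.57 over the 12, and their part in the Apoe level was not tested. Apoc1 per length was 0.451 to 0.591 of Apoe in the 6 libraries, the narrowest spread of the 8 within-library ratios computed.

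Apob codes for apolipoprotein B, the single large protein around which each VLDL particle forms. Its FPKM was 382 in SD, 395 in HFD and 458 with HFD plus JT003, and 214 in corn oil, 227 in CCl4 and 229 with CCl4 plus JT003. No Apob ratio within a model passed the limit of 0.5. HFD versus SD was at -0.08 and at 0.05 with total reads as the scale, and HFD plus JT003 versus HFD was at 0.20 (0.19 to 0.21). CCl4 versus corn oil was at -0.15 and at 0.08 with total reads. Thus no direction held across scales for HFD versus SD or for CCl4 versus corn oil.

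Mttp codes for the large subunit of the transfer protein that loads lipid onto nascent apolipoprotein B. Its FPKM was 168 in SD, 83.2 in HFD and 108.5 with HFD plus JT003, and 94.1 in corn oil, 120.4 in CCl4 and 80.65 with CCl4 plus JT003. In the diet model both libraries on high fat diet were below SD, and in the CCl4 model the toxin library was the highest. The log2 ratio was -1.14 (-1.18 to -1.09) for HFD versus SD and 0.37 (0.32 to 0.41) for HFD plus JT003 versus HFD. It was 0.12 (0.07 to 0.16) for CCl4 versus corn oil, -0.11 with hepatocyte markers as the scale, and -0.64 (-0.69 to -0.60) for CCl4 plus JT003 versus CCl4. Trmt10a and the antisense gene Gm43691 overlap Mttp on the opposite strand.

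Ratios of FPKM within a library do not depend on how libraries are scaled. Per length, Apoa4 was at 0.479 of Apoa1 in SD, 0.0958 in HFD and 0.0387 with HFD plus JT003, and at 0.156 in corn oil, 0.122 in CCl4 and 0.135 with CCl4 plus JT003. The activator Apoa5 relative to the inhibitor Apoc3 was at 0.301 in SD, 0.120 in HFD and 0.282 with HFD plus JT003, and at 0.170 in corn oil, 0.119 in CCl4 and 0.165 with CCl4 plus JT003. In both models that ratio was lowest in the injured liver without JT003, and the library with JT003 was nearer to its control. The inhibitor Apoc3 relative to the cofactor Apoc2 was at 18.7 in SD, 40.3 in HFD and 31.6 with HFD plus JT003. In the CCl4 model it went the other way, from 39.6 in corn oil to 20.6 in CCl4 and 29.9 with CCl4 plus JT003. Mttp relative to Apob, a loading enzyme and its protein, was at 0.440 in SD, 0.211 in HFD and 0.237 with HFD plus JT003. It was at 0.440 in corn oil, 0.531 in CCl4 and 0.352 with CCl4 plus JT003, so both controls had the same ratio to 3 digits. Apoa1 relative to Apob was at 23.2 in SD and 14.2 in HFD, and at 53.5 in corn oil and 37.6 in CCl4. Apoe relative to Apob was 23.9 to 29.4 in the diet libraries and 60.3 to 70.2 in the CCl4 model, and the long Apob transcript makes such ratios sensitive to the length trend between the models described below.

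**Figure D3:**
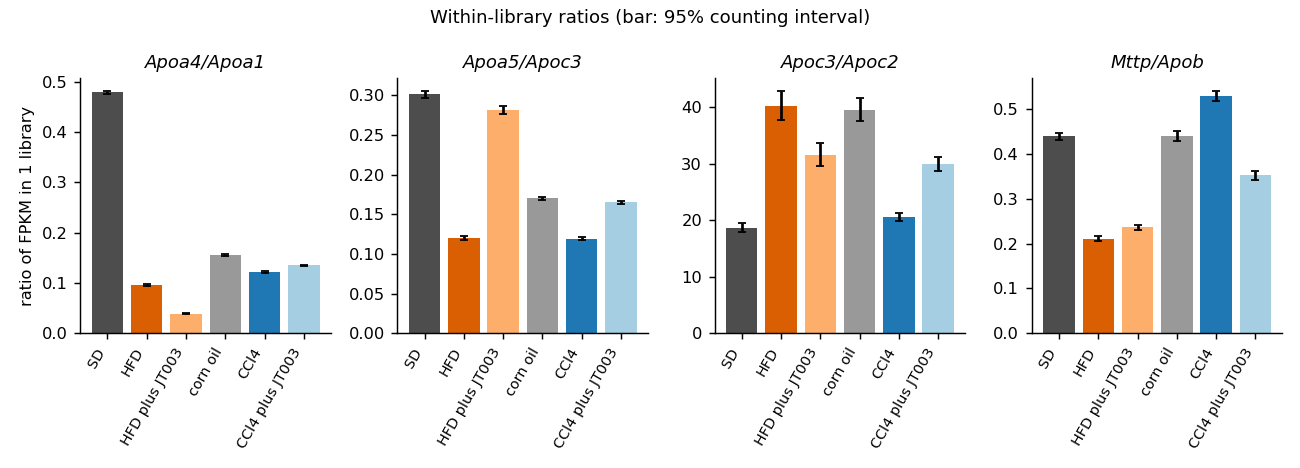
Ratios of the FPKM of a pair of genes within each of the 6 libraries, for 4 pairs on separate linear axes that start at 0, with 95% counting intervals. Apoa5 over Apoc3 is low in HFD (0.120) and CCl4 (0.119), and Apoc3 over Apoc2 is high in HFD (40.3) and low in CCl4 (20.6).

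The control libraries of the models differed from each other. Their mice may also differ in age at sampling, and the part of age was not tested. In corn oil versus SD, Apoa4 was called lower, beside 3.27% of 17018 genes, and at the limit of 0.5 Apoa4, Apob and Mttp were lower, beside 10.5% of genes. Apoa2, Apoc1, Apoc3 and Apoe were higher at that limit, beside 8.13%, and calls in either direction at the limit of 1 made up 5.52%. The log2 ratio followed transcript length over all genes, with a median of 0.50 for genes up to 1000 bases and -0.40 for genes over 8000 bases. Within the models the same medians stayed between -0.13 and 0.12. After subtraction of the median of genes of like length, Apoa4 was at -1.37, Apoc2 at -0.66, Mttp at -0.52 and Apob at -0.36, while Apoc3 was at 0.39, Apoe at 0.26, Apoa2 at 0.23 and Apoc1 at 0.15, so that none of the 4 higher genes still passed the limit of 0.5. Apoa4 was not called with the assumed variation of 0.2, beside 105 of all genes. Any level set across the models carries that trend. All 12 macrophage markers were called lower in corn oil than in SD, with a median of -1.74. Other listed genes called here included Angptl8, Saa4 and Nr0b2, at 2.13, 1.12 and 1.40, and Mia2, Ndst1, A1cf, Cidec, Celf2 and Onecut1, at -2.03, -1.92, -1.61, -1.30, -1.13 and -1.10.

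Counts of called genes in the lists that follow stand beside the share of all genes called at the limit of 1. Higher calls made up 2.96% in HFD versus SD, 0.767% in HFD plus JT003 versus HFD, 4.8% in CCl4 versus corn oil and 1.91% in CCl4 plus JT003 versus CCl4. Lower calls made up 2.49%, 0.901%, 2.46% and 2.55% in the same order. The lists hold 6 to 30 genes, so a count of 1 or 2 is not read as a result about a list.

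Among 12 other apolipoproteins and proteins bound to lipoproteins, 1 was called higher and 1 lower in HFD, none with JT003 on the diet, 1 higher and 1 lower in CCl4, and 1 higher with JT003 after CCl4. The list median ran from -0.33 to 0.12 over these 4 comparisons. Saa4, a constitutive HDL protein of the serum amyloid family, was at 2.99 in HFD versus SD and at 1.24 with CCl4 plus JT003 versus CCl4. Apom, which carries sphingosine 1-phosphate on HDL, was at -1.02 in HFD versus SD and at 1.04 in CCl4 versus corn oil. Among 8 genes of HDL lipid transport, 1 was called in HFD (Abcg5, a subunit of the sterol exporter of bile, at 1.01), 1 in CCl4 (Pltp, the phospholipid transfer protein, at -1.37, a gene also on the list before) and none with JT003. The medians of that list ran from -0.06 to 0.29.

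Of 30 genes of VLDL assembly and export, 2 were called lower in HFD, 1 higher and 1 lower with JT003 on the diet, 1 lower in CCl4 and 1 lower with JT003 after CCl4, and the medians ran from -0.19 to -0.01. Cidec, a lipid droplet protein gene, was the one gene called lower in all 4 comparisons, at -2.85, -1.80, -2.27 and -1.25, with counts of 5423 in SD and 233 with HFD plus JT003. Ces1d, a liver lipase of stored triglyceride, was at 2.05 in HFD plus JT003 versus HFD. Tm6sf2, which acts in the lipidation of VLDL, was at -1.10 in HFD versus SD, 0.24 with JT003 on the diet, 0.41 in CCl4 versus corn oil and -0.54 with JT003 after CCl4. Mttp was at -1.14, 0.37, 0.12 and -0.64 in the same order. P4hb, the small subunit of the Mttp complex, was at -0.18, -0.17, 0.32 and -0.50 in the same order, none of them called.

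Of 6 genes of Apob mRNA editing, which makes the short form of the protein, none was called within a model at the limit of 1, and the medians ran from -0.10 to 0.15. At the limit of 0.5, the editing enzyme gene Apobec1 was at 0.56 in HFD versus SD and at 0.67 with CCl4 plus JT003 versus CCl4. A1cf, its cofactor, was at 0.91 with JT003 on the diet, 0.60 in CCl4 versus corn oil and -0.66 with JT003 after CCl4. The tables hold gene totals, so the edited and the full-length Apob message were not separated.

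Of 14 genes of lipoprotein receptors and uptake, 1 was called higher and 1 lower in HFD, 1 higher with JT003 on the diet, 2 higher and 1 lower in CCl4 and 1 lower with JT003 after CCl4, and the medians ran from -0.31 to 0.19. Sdc1, a heparan sulfate proteoglycan that binds remnants, was at -1.08 in HFD versus SD, and Vldlr, chosen here after its values were seen, at 2.08 on 17 and 83 counts. Ndst1, which modifies heparan sulfate, was at 1.01 in CCl4 versus corn oil and -1.08 with CCl4 plus JT003 versus CCl4, and Mylip, a ubiquitin ligase gene, at -1.07 in CCl4 versus corn oil. Lrp1, a large endocytic receptor gene, was at 0.31, -0.18, 0.27 and -0.10 over the 4 comparisons, none called. Among 9 genes of plasma lipolysis, 2 were called higher in HFD, 2 higher in CCl4 and none with JT003, and the medians ran from -0.30 to 0.39. Angptl8, an inhibitor of lipoprotein lipase, was among them in HFD, at 1.23. In CCl4 they were Lpl, the lipase itself, at 1.99 and Angptl8 at 1.01.

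Of 28 genes of transcriptional regulators, 2 were called higher in HFD, 1 lower with JT003 on the diet, 3 lower in CCl4 and 2 higher with JT003 after CCl4, and the medians ran from -0.16 to 0.03. In HFD the genes were Srebf1, the lipogenic sterol response factor, at 1.502 and Pparg at 1.35. With JT003 on the diet it was Nr1d1, a clock repressor, at -1.84. In CCl4 they were Ppargc1b at -1.57, Onecut1 at -1.40 and Nr1d2 at -1.02, and with JT003 after CCl4 Nr1d2 was at 1.72 and Onecut1 at 1.44. Hnf4a, the hepatocyte factor that binds many apolipoprotein promoters, was at -0.33, -0.14, -0.34 and -0.23 over the 4 comparisons. Creb3l3, a factor known to raise Apoa4 and Apoc2, was at -0.80 in HFD versus SD, past the limit of 0.5, and at -0.09, -0.06 and -0.28 in the others. Ppara was at -0.23, 0.28, -0.29 and 0.06, Nr1h3 at -0.33, 0.01, -0.15 and 0.00021, and neither was called. Foxo1, which acts on Mttp and Apoc3, was at 0.58 in HFD versus SD and 0.51 in CCl4 versus corn oil, and at -0.04 and 0.03 with JT003. Nr0b2 was at 0.08, 0.36, 0.38 and -0.86. Of 12 clock genes, 6 were called in either direction in HFD, beside 5.44% of all genes, 2 with JT003 on the diet, beside 1.67%, 7 in CCl4, beside 7.26%, and 9 with JT003 after CCl4, beside 4.46%. Dbp, an output gene of the clock, had 96 counts in CCl4 and 1931 with CCl4 plus JT003. The part of sampling time in the apolipoprotein ratios was not tested.

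Genes next to the chromosome 9 group were read beside it. None of 7 neighbours was called in HFD, with JT003 on the diet or in CCl4, and their medians ran from -0.17 to 0.13. In CCl4 plus JT003 versus CCl4, the next genes beyond Apoa5, Zpr1 and Bud13, were called higher at 1.63 (1.53 to 1.73) and 1.53 (1.27 to 1.83), while Apoa5 was at 0.74, Apoa4 at -0.07, Apoc3 at 0.26 and Apoa1 at -0.22. In HFD plus JT003 versus HFD, where Apoa5 was at 0.88, Zpr1 was at 0.34 and Bud13 at -0.31. Tagln, a smooth muscle gene of the same neighbourhood, was at -1.11 in CCl4 plus JT003 versus CCl4. None of 9 neighbours of the chromosome 7 group was called within a model, with medians from -0.27 to -0.20, and Bcam was at 1.57 in corn oil versus SD.

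**Figure D4:**
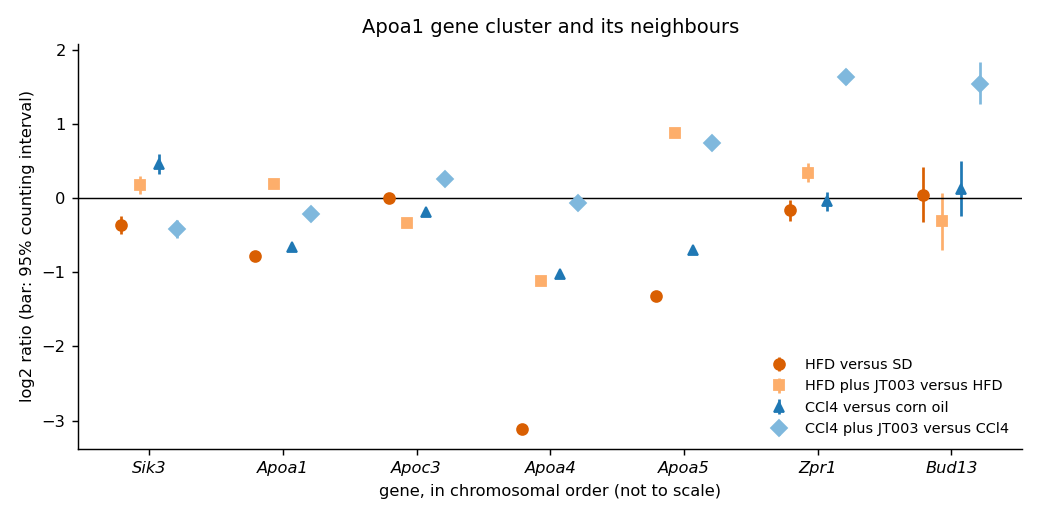
Log2 ratio in 4 comparisons for the 4 apolipoprotein genes of chromosome 9 and the protein-coding genes beside them, in chromosomal order and not to scale, with 95% counting intervals. Apoa4 is lowest in HFD versus SD at -3.11, and Zpr1 and Bud13 stand above the others only in CCl4 plus JT003 versus CCl4, at 1.63 and 1.53.

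A pooled CCl4 column gives a view of the spread between CCl4 livers. The libraries in it are not named. It was taken to hold the CCl4 library, which is inferred from the values, since the authors' pooled count sums to 2.97 times that library and fell short of it for 24 genes, by at most 0.99 of a count. On that reading the rest of the pool, 39780549 counts, is other CCl4 material, and each value of the rest depends on it. Relative to the CCl4 library, the rest stood at -0.71 for Apoa5, -0.54 for Apoe, -0.48 for Apoa2, -0.48 for Apoc1, -0.48 for Apoc2, -0.41 for Mttp, -0.30 for Apoc3 and -0.20 for Apoa1 on the log2 scale, and at 0.17 for Apoa4 and 0.31 for Apob. For 7 of the 10 genes this difference was at least as large as that between the CCl4 plus JT003 and the CCl4 library, and both differences share the CCl4 library. The share of all genes for which this held was not computed, so the count is not read as particular to these genes. Against the rest of the pool, CCl4 plus JT003 was at 1.47 for Apoa5 and past the limit of 1, and at 0.19 for Apoc2, which had been at -0.30. Other genes also depend on the base taken. Relative to the CCl4 library, the rest of the pool and CCl4 plus JT003 were both lower for Mttp, at -0.41 and -0.64. They went opposite ways for Apoa2 (-0.48 and 0.44), Apoc1 (-0.48 and 0.44) and Apoe (-0.54 and 0.16). The rest of the pool against corn oil was at -1.44 for Apoa5, -1.37 for Apoa2 and -0.87 for Apoa4. Apoa5 and Apoa2 thus passed the limit of 1 there and Apoa4 did not. It was at -0.96 for Apoc1, -0.91 for Apoe, -0.88 for Apoa1, -0.50 for Apoc3 and -0.31 for Mttp. Apoc2 was at 0.23 and Apob at 0.14. The lower genes there were not of the A group only.

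**Figure D5:**
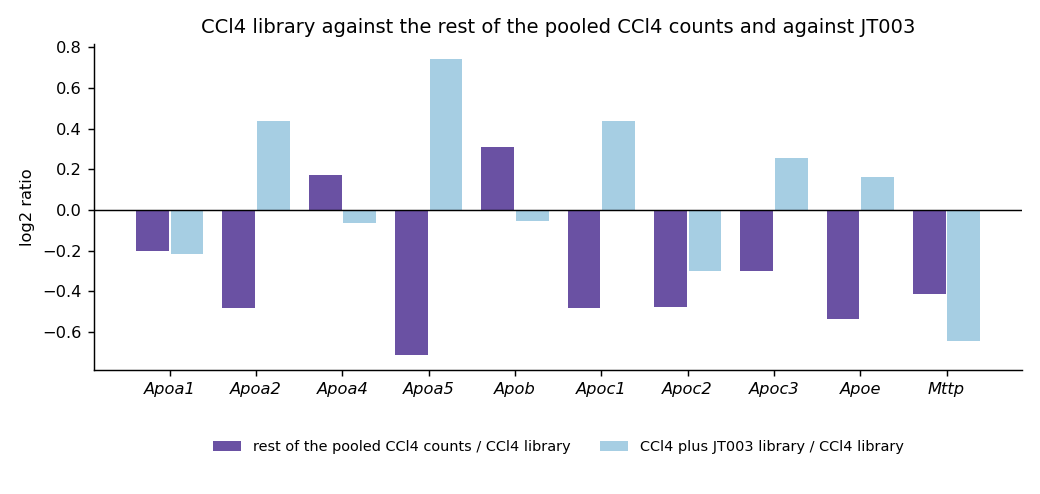
Log2 ratio to the CCl4 library, for each of the 10 genes, of the rest of the authors' pooled CCl4 counts (dark bars) and of the CCl4 plus JT003 library (light bars). The dark bar is the longer one for 7 of the 10 genes, a count not made over all genes, and for Apoa5 the bars are at -0.71 and 0.74.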

How the data were processed

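Liver RNA was sequenced in 6 libraries, 1 per condition, on BGISEQ-500. Per gene and library the authors deposited an expected count, which is an estimated count without normalization, and an FPKM value, scaled to transcript length and sequencing depth. Per the labels the submitters' processing notes name HISAT, Bowtie2, RSEM and the build mm9, without versions. Of the deposited expected counts above 0, 69.9% to 70.9% were whole (within 0.001). The authors' 4 comparison tables hold their log2 ratios, p-values and q-values, which were not used; only the pooled CCl4 expected count of 1 table was used, less the CCl4 library, which it was inferred from the values to hold.

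Expected counts were rounded and scaled by TMM factors (R 4.3.3 with edgeR 4.0.16) from the 3 libraries of each model, or from all 6 for corn oil versus SD. Genes with any read entered an exact conditional binomial test, two-sided (Python 3.11.15, scipy 1.17.1), with Benjamini-Hochberg adjustment, prior count 2, and 95% Clopper-Pearson intervals. Such scripts were tested on simulated data. At 19374236 to 20184557 counts per library, the precision of a gene follows its own count, and intervals cover counting error only.

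The genes, 9 gene lists and 12 marker lists were chosen with earlier results of these data known. Named were all members, up to 4 called genes per list with at least 100 counts, the regulators, receptors and partners given for all 4 comparisons whatever their values, and the 3 nearest profiles of the 3 widest-ranging members. Apoc4, Sik3, Dbp, Vldlr, Cfd, Plin1, Adipoq, Fabp2, Vil1 and Lct were named outside that rule, after their values were seen. Some genes that the rule names are not reported here. The promoter motifs were chosen with the sequences in view. Promoters and gene order are from RefSeq GRCm38.p6, since the files' build differs, and overlaps are from GENCODE. Alternatives were other scalings (DESeq2 1.42.0 size factors among them), thresholds, priors, filters, FPKM, edgeR exact tests with an assumed biological variation, the rest of the pool, and subtraction of length bins, which was chosen after seeing the data.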

Additional observations from a re-analysis of the deposited data

Results flagged for a closer look

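For 7 of the 10 genes, in at least 1 of the contrasts below, the ratio went opposite ways in the diet and CCl4 models. Both counting intervals were then clear of 0, which at these counts holds for small ratios too. The share of all genes that did so was not computed, so the count is not read as a result about these genes. Each value is the log2 ratio of the diet model less that of the CCl4 model, and with 1 library per condition the difference was not tested. For the injured liver against its control these were Apoc2 at -1.78, Mttp at -1.25 and Apoc1 at 0.51. For the injured liver with JT003 against that without it they were Mttp at 1.01, Apoc1 at -0.69, Apoc3 at -0.60, Apoa1 at 0.40, Apoe at -0.26 and Apob at 0.25. The sign for Apob in the CCl4 model turned with the scaling, and that of Mttp for CCl4 versus corn oil turned with hepatocyte markers as the scale. The rest of the pooled CCl4 counts stood at -0.41 for Mttp and -0.48 for Apoc1 and Apoc2 relative to the CCl4 library.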

How the results depend on the processing

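Sequencing depth was not the limit for most genes, and Apoc2, with 972 to 3181 counts, had the fewest. The limit is 1 library per condition. With an assumed biological variation in the edgeR exact test, called members went from 4 to 1 at a coefficient of variation of 0.2 and to 0 at 0.4 in HFD versus SD, and from 1 to 0 at both in HFD plus JT003 versus HFD, in CCl4 versus corn oil and in corn oil versus SD. Over all genes the calls fell from 924 to 179 and 11 of 16973 in the first, from 285 to 19 and 0 of 17090 in the second, from 1251 to 346 and 59 of 17234 in the third, and from 939 to 105 and 6 of 17018 in the last. With the limit at 0.5 the counts were 2 in HFD plus JT003 versus HFD, 5 in CCl4 versus corn oil, 2 in CCl4 plus JT003 versus CCl4 and 7 in corn oil versus SD, beside 977, 2824, 2271 and 3164 of all genes tested. In CCl4 versus corn oil the count was 0 with total reads, with FPKM and with length bins subtracted, since Apoa4 lies at the edge, and 2 with hepatocyte markers as the scale and with the rest of the pool. In CCl4 plus JT003 versus CCl4 it was 1 with the rest of the pool. In HFD versus SD it was 3 with total reads, FPKM or length bins, without Apoc2.

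Total reads moved the median of all genes by 0.12 in HFD versus SD and to 0.23 in CCl4 versus corn oil, and hepatocyte markers moved it to -0.20 in the latter, 0.17 in CCl4 plus JT003 versus CCl4 and -0.12 in corn oil versus SD. Counted once per gene, comparison and alternative setting, 20 ratios lost the call and 18 gained one. On the same count 550 kept both sign and call status and 22 turned sign, so 1 ratio can count more than once. Signs that turned belonged to genes that were not called. In HFD versus SD these were Apob (0.048 with total reads, 0.046 with FPKM) and Apoe (0.10 with total reads, 0.10 with FPKM, 0.024 with hepatocyte markers). In HFD plus JT003 versus HFD they were Apoa2 (-0.0080) and Apoc2 (-0.084) with hepatocyte markers. In CCl4 versus corn oil they were Apob (0.081 with total reads, 0.085 with FPKM, 0.14 with the rest of the pool), Apoc3 (0.044 with total reads, 0.046 with FPKM) and Mttp (-0.11 with hepatocyte markers, -0.31 with the rest of the pool). In CCl4 plus JT003 versus CCl4 they were Apoa4 (0.0019 with total reads, 0.00040 with FPKM, 0.11 with hepatocyte markers), Apob (0.014 with total reads, 0.012 with FPKM, 0.12 with hepatocyte markers) and Apoc2 (0.19 with the rest of the pool). In corn oil versus SD it was Apoa5 (-0.036 with hepatocyte markers). Other causes were not tested. No paired analysis was possible because each condition has 1 library.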
